A study of Mus musculus with 6 samples.

Results

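The genes described here are 9 neighbours on mouse chromosome 7 around the zinc finger gene Zfp110: Zik1, 2900092C05Rik, 1700047O18Rik, Zfp110, Zfp128, Zscan22, 1810019N24Rik, Gm29638 and Chmp2a, in that order along the chromosome. They are 9 of the 53700 genes counted, and all 9 passed the filter on low counts that left 21902 genes for testing. They were chosen by their opposite-strand read counts, which shifted between the 2 groups of this series, so their differences between the groups are given as a description and are not tested. RNA came from whole testes of mice at postnatal day 45, from 3 mice whose genotype label is Msl3 wild type (WT) and 3 whose label is Msl3 conditional knockout (cKO, made from a floxed allele). All 6 carry the strain label Msl3em1Forni/C57BL/6J. The recombinase, the cells it acts in, the deleted exons and the kinship of the mice are not given in the sources used here. Msl3 encodes a chromatin-binding subunit of the MSL histone acetyltransferase complex, and the series addresses whether spermatogenesis needs it.

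C2H2 zinc finger genes form one of the largest families of DNA-binding proteins in mammals, and many lie side by side in clusters that grew by duplication. A large share of them carry a KRAB domain, which recruits the corepressor Trim28 and, through it, the histone methyltransferase Setdb1 and heterochromatin proteins. Others carry a SCAN domain, through which these proteins pair with each other. In the germ line KRAB zinc finger proteins are known for silencing transposable elements and for keeping imprints.

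The libraries held 56991431 to 73766444 reads assigned to genes. For Msl3 itself the WT libraries gave 942, 1226 and 990 reads and the cKO libraries 1170, 829 and 923, with overlap and a log2 fold change of -0.12 (SE 0.088, edgeR adjusted p = 0.551). WT and cKO below therefore mean the libraries so labelled. The defining markers of germ cells and testis somatic cells were present, with 0 of 57 markers at 0 in every library. None of these markers passed the edgeR threshold. The summed level of 6 round spermatid markers was 1030 to 1120 CPM in WT and 988 to 1020 CPM in cKO, and that of 8 spermatocyte markers 1470 to 1520 CPM and 1530 to 1550 CPM. These 2 sums did not overlap between the groups, and their part in the values below was not tested. The sums for spermatogonia, elongating spermatids, Sertoli, Leydig, peritubular myoid cells and macrophages overlapped. In whole tissue, fewer cells of a type and less RNA per cell cannot be told apart.

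The region is shown first by the sequences at which its transcripts start. RefSeq promoters, 250 bases before to 50 after an annotated start in GRCm38.p6, matched 7 of the 9 genes; 1700047O18Rik and 1810019N24Rik had none. The 3 consecutive plus-strand zinc finger genes that were lower together, the zinc finger gene that was higher (Zik1) and the lincRNA Gm29638 are printed 5′ to 3′ on the strand of the gene. Capitals mark matches to any of 7 short motifs, searched on both strands.
Zfp110, chr7:12834511-12834810, plus strand: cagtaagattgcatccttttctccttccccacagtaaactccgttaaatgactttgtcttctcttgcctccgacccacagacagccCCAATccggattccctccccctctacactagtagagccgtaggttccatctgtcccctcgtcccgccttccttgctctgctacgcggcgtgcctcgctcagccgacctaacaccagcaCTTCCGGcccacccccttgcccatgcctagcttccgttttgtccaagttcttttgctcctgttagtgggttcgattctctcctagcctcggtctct
Zfp128, chr7:12880928-12881227, plus strand: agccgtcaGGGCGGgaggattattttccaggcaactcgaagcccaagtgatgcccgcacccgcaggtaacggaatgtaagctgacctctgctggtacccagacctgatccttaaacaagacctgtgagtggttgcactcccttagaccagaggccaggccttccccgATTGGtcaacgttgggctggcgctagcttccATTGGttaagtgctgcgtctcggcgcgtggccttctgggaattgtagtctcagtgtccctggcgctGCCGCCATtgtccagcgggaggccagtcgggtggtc
Zscan22, chr7:12897559-12897858, plus strand: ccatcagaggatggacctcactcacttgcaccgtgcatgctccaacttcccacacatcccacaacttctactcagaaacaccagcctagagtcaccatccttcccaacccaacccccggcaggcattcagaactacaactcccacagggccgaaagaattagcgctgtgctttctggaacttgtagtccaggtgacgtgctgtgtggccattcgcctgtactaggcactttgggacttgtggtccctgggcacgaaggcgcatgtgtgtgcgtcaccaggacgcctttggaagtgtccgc
Zik1, chr7:10495332-10495631, minus strand: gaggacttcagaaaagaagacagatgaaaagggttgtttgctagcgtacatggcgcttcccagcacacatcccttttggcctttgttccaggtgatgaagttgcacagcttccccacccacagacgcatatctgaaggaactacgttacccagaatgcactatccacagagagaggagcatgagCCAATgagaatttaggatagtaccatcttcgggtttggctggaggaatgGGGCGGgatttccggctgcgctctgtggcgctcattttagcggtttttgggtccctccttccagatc
Gm29638, chr7:12949735-12950034, plus strand: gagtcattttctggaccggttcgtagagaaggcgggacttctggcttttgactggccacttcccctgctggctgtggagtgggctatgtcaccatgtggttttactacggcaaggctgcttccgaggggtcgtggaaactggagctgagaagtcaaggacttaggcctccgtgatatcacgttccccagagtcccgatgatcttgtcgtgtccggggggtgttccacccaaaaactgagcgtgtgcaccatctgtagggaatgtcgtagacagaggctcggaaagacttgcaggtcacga

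The motifs were the TATA box (TATAAA), the GC box (GGGCGG), the CCAAT box (CCAAT), an ETS core (CCGGAAG), the core of an NRF1 site (GCATGCGC), a CRE (TGACGTCA) and a YY1 core (ATGGCGGC). No promoter of the 7 held a TATA box, against 13.6% of all 32851 promoters of this length. Zfp110 held a CCAAT box 164 bases upstream of its start and an ETS core on the opposite strand 46 bases upstream, and these motifs occur in 37.4% and 8.86% of all promoters. Zfp128 held 2 CCAAT boxes, 1 GC box and a YY1 core 14 bases downstream of its start, the last found in 2.24% of promoters. Zik1, the gene in the other direction, also held a CCAAT box and a GC box (35.7% of promoters). Chmp2a held the NRF1 site (2.71% of promoters), matched on both strands at overlapping places, and the CRE (1.79%). Zscan22, 2900092C05Rik and Gm29638 matched none of the 7 motifs. CpG dinucleotides numbered 15 in the promoter of Zfp110, 17 in those of Zfp128 and Chmp2a, 11 in that of Zscan22, 10 in that of Zik1 and 1 in that of 2900092C05Rik, against a median of 7. No motif of this list was common to the promoters of Zfp110, Zfp128 and Zscan22.

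Along the chromosome, 8 of the 9 genes were lower in the libraries labelled cKO, where 49.3% of all genes tested were, and 1, Zik1, was higher. In 7 of the 8 lower genes every cKO library lay below every WT library. Over all 21902 tested genes 8.85% were lower without overlap. The median log2 fold change of the 9 genes was -0.33, against 0.00 over all genes tested, with a range from -1.55 to 0.33. An edgeR adjusted p of 0.05 was passed by 2 of the 9, the lincRNAs 1810019N24Rik and Gm29638, and by 0.0183% of all genes tested. Since the shift between the groups chose the members, nothing is read from these counts.

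**Figure D1:**
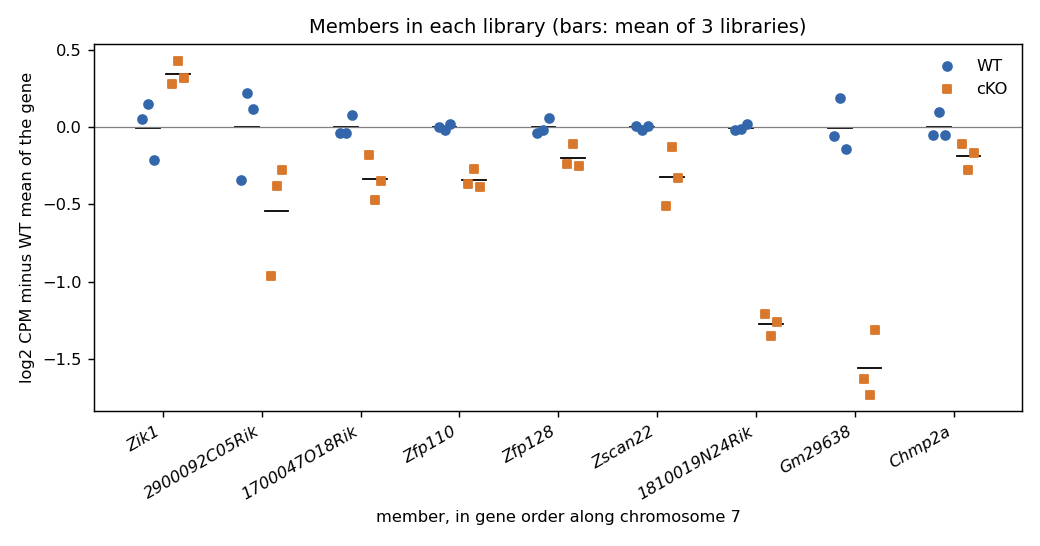
Each point is 1 library: the y axis gives log2 CPM minus the mean of the 3 WT libraries for that gene, and the x axis the 9 genes in chromosome order, with bars for group means. The cKO squares of 1810019N24Rik and Gm29638 lie more than 1 log2 unit below WT, those of 6 other genes lie lower by less than 1, and those of Zik1 lie above its WT circles.

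Zfp110 encodes a KRAB zinc finger protein known as Nrif, which binds the p75 neurotrophin receptor, and its human counterpart is ZNF274. The gene (ENSMUSG00000058638) lies on the plus strand of chromosome 7 from 12834761 to 12850577 (GRCm38, as all positions here). Its level was 246, 242 and 248 CPM in the 3 WT libraries and 189, 204 and 187 CPM in the 3 cKO libraries. CPM is the standard unit of reads relative to library depth, here after TMM scaling. The WT mean was 245 ± 3.1 CPM (SD, n = 3), and all 3 cKO values lay below the lowest WT value. The cKO mean of 193 ± 9.15 CPM (SD, n = 3) was 78.7% of the WT mean, a log2 fold change of -0.34 (SE 0.064). At 10903 to 15718 reads per library this was the most deeply counted of the 9 genes. Its log2 fold change stayed between -0.38 and -0.32 when single libraries were left out.

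The next 2 tested genes on the same strand are also zinc finger genes, and both were lower. Zfp128 (ENSMUSG00000060397, 12881177 to 12893422), which begins 30599 bases after the end of Zfp110, had 17.0, 17.3 and 18.3 CPM in WT and 14.8, 16.3 and 14.7 CPM in cKO. Its groups came close at cKO replicate 2 and WT replicate 1, and the log2 fold change was -0.20 (SE 0.078). Zscan22 (ENSMUSG00000054715, 12897815 to 12909083) encodes a SCAN domain zinc finger protein and begins 4392 bases after Zfp128. It had 20.9, 20.5 and 21.0 CPM in WT and 14.6, 19.0 and 16.5 CPM in cKO. The WT libraries were nearly level and the cKO libraries spread, with an SD of 0.284 and 2.21 CPM, and the log2 fold change was -0.32 (SE 0.094). Within a library, Zfp110 was 11.8 ± 0.0452 times Zscan22 in WT (SD, n = 3) and 11.7 ± 1.17 times in cKO, on the CPM scale, without correction for length.

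Zik1 encodes a zinc finger protein known to bind the RNA-binding protein hnRNP K. It lies on the minus strand from 10487229 to 10495394 (ENSMUSG00000030393), 2017122 bases before 2900092C05Rik, with 8 tested genes between them. Its level was 4.51, 4.82 and 3.76 CPM in WT and 5.26, 5.84 and 5.41 CPM in cKO. All cKO libraries were above all WT libraries, and the mean was 4.37 ± 0.544 CPM (SD, n = 3) against 5.51 ± 0.302. The log2 fold change was 0.33 (SE 0.12), and it was 0.23 without WT replicate 3, the lowest library. With 234 to 384 reads per library, Zik1 was counted far less deeply than Zfp110.

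Chmp2a encodes a subunit of ESCRT-III, the complex that cuts membrane necks in cell division, endosomal sorting and membrane repair. It lies on the minus strand from 13032010 to 13034807 (ENSMUSG00000033916), the last of the 9 genes. It had 89.9, 99.8 and 90.1 CPM in WT and 86.0, 76.9 and 82.8 CPM in cKO, a log2 fold change of -0.19 (SE 0.072). The groups did not overlap, and the difference was close to that of Zfp128. Its neighbour Ube2m, which encodes the NEDD8-conjugating enzyme UBC12 and lies on the same strand, had 228, 189 and 194 CPM in WT and 230, 198 and 204 CPM in cKO. The ratio of Chmp2a to Ube2m within a library, 0.462 ± 0.0662 in WT and 0.390 ± 0.0164 in cKO (SD, n = 3), overlapped between the groups.

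2900092C05Rik (ENSMUSG00000030385, plus strand, 12512517 to 12556323) is annotated as protein coding. It had 32.0, 47.2 and 43.8 CPM in WT and 20.8, 31.0 and 33.3 CPM in cKO. It was the 1 gene of the 9 whose groups overlapped, since cKO replicate 3 was above WT replicate 1. Its log2 fold change was -0.53 (SE 0.17), and -0.35 without cKO replicate 1, the lowest library. 1700047O18Rik (ENSMUSG00000109594, plus strand, 12780860 to 12781602) is a transcript still to be experimentally checked (biotype TEC) and lies inside the span of Zscan18 on the opposite strand, sharing 0 exon bases with it. It had 13.5, 13.5 and 14.7 CPM in WT and 12.2, 10.03 and 10.9 CPM in cKO, without overlap and with a log2 fold change of -0.33 (SE 0.092). Zscan18, around it, had 10.1, 11.9 and 11.6 CPM in WT and 9.76, 12.7 and 11.2 CPM in cKO, which overlap between the groups.

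The largest differences were those of the lincRNA pair. 1810019N24Rik (ENSMUSG00000097115, minus strand, 12948592 to 12961768) had 2.84, 2.87 and 2.93 CPM in WT and 1.25, 1.13 and 1.20 CPM in cKO. Gm29638 (ENSMUSG00000102084, plus strand, 12959299 to 12961887) had 1.14, 1.36 and 1.08 CPM in WT and 0.384, 0.357 and 0.479 CPM in cKO. In both, the groups were far apart. The cKO mean was 41.4% of the WT mean for 1810019N24Rik, a log2 fold change of -1.27 (SE 0.13), and 34.2% for Gm29638, a log2 fold change of -1.55 (SE 0.21). Gm29638 rested on 67, 88 and 67 reads in WT and 28, 20 and 28 in cKO, which leave out the plus-strand reads beside it given below. These were the 2 genes past the edgeR threshold, and 0 of the 9 passed without WT replicate 3, without cKO replicate 2 or with unstranded counts. In the unstranded counts the log2 fold changes were -0.68 and -1.05. DESeq2 left both without an adjusted p, and among the 6 members with one it called Zfp110 alone (1.78% of its genes were called).

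The strand columns of the tables divide the reads of this pair further. In GENCODE M21, 1810019N24Rik has an exon of 80 bases (12961689 to 12961768) that lies wholly within an exon of Gm29638 (12961574 to 12961887), and a long exon of 1475 bases (12948592 to 12950066). Plus-strand reads over exons of 1810019N24Rik that did not touch an exon of Gm29638 therefore fall on the long exon. They numbered 22, 46 and 33 in WT and 66, 55 and 54 in cKO. On the CPM scale this was 0.374, 0.709 and 0.531 in WT and 0.905, 0.983 and 0.925 in cKO. All 3 cKO libraries were above all 3 WT libraries, in the opposite direction to both annotated lincRNAs. The mean was 0.538 ± 0.168 CPM (SD, n = 3) in WT and 0.938 ± 0.0405 in cKO. RefSeq, unlike GENCODE M21, starts Gm29638 at 12949985, inside that long exon, which is the start printed above. Which transcript these reads come from cannot be told from gene counts. Counted with Gm29638, they would make its difference between the groups smaller. Of the plus-strand reads counted for Gm29638, 38, 51 and 36 in WT and 12, 8 and 9 in cKO touched both genes.

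**Figure D2:**
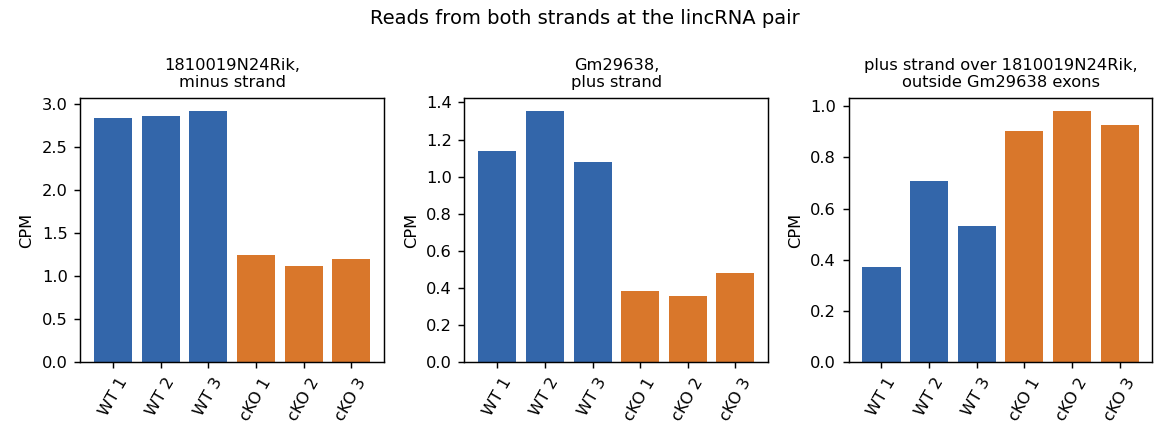
Bars give CPM (y axis, from 0) in each of the 6 libraries (x axis) for minus-strand reads of 1810019N24Rik, plus-strand reads of Gm29638, and plus-strand reads on 1810019N24Rik exons that miss Gm29638. The first 2 panels are lower in the cKO libraries, and the third runs from 0.374 to 0.709 CPM in WT and from 0.905 to 0.983 CPM in cKO.

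Elsewhere in the 9 genes the 2 strands were cleanly separated. Reads on the strand opposite to the transcript made up 0.0155% to 1.23% of the stranded reads of the 7 other members. They made up 36.2% for 1810019N24Rik and 0% for Gm29638. No minus-strand read therefore touched the exon of 80 bases within Gm29638, and the reads counted for 1810019N24Rik fall on its long exon. Stretches of 75 bases, the read length, that also occur exactly in transcripts of another gene were 0 in each of these 7 members and 6 in each lincRNA, where the 2 genes overlap.

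Per kilobase of annotated exon, the members spanned a wide range of levels. In WT, Chmp2a was highest at 80.2 CPM per kilobase, followed by Zfp110 at 59.6, 2900092C05Rik at 46.2, 1700047O18Rik at 18.7, Zscan22 at 5.94, Zfp128 at 4.29, Gm29638 at 3.21, 1810019N24Rik at 1.85 and Zik1 at 1.04. No neighbours in this order overlapped between their 3 WT libraries. In cKO the first 6 places were the same, and Zik1 at 1.31 CPM per kilobase stood above Gm29638 at 1.10 and 1810019N24Rik at 0.766. There the libraries of Zik1 and Gm29638 overlapped.

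Lower and level genes were interspersed along the region, partly in runs. The members were picked for a shift between the groups, so level genes among those left out follow from that choice. Zfp110, Zfp128 and Zscan22 were consecutive tested genes, and so were 1810019N24Rik and Gm29638. The 4 tested genes between Gm29638 and Chmp2a overlapped between the groups. From 2900092C05Rik to Chmp2a, 522 kilobases, 16 genes were tested, 8 of them members. The 8 others had a median log2 fold change of 0.01 (-0.01 with library totals alone as the scaling). Of them 0 passed the edgeR threshold and 0 had an unadjusted edgeR p under 0.05. DESeq2 called 0 of the 5 that had an adjusted p. Among these was Zfp329, a zinc finger gene between 1700047O18Rik and Zfp110 on the minus strand, with 17.4, 18.9 and 17.4 CPM in WT and 15.6, 20.9 and 18.1 CPM in cKO. Trim28, the KRAB corepressor, lies between Gm29638 and Chmp2a and had 592, 492 and 524 CPM in WT and 613, 531 and 534 CPM in cKO, a log2 fold change of 0.06 (SE 0.085, edgeR adjusted p = 0.791). The plus strand held 11 of the 16 genes, 6 of them members, and the minus strand 5, 2 of them members. The ratio of Zfp110 to Zfp329 within a library was 14.1, 12.8 and 14.2 in WT and 12.2, 9.77 and 10.3 in cKO, every cKO ratio being below every WT ratio. Since Zfp110 was picked for its shift and Zfp329 was level, this ratio restates that choice.

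**Figure D3:**
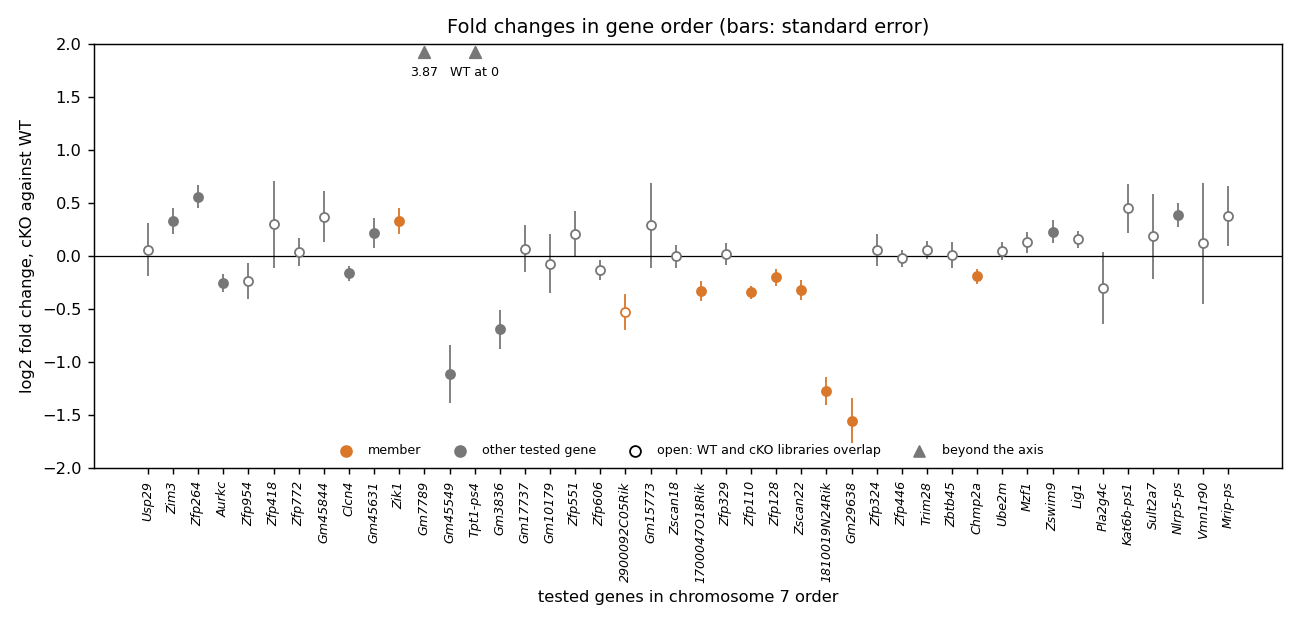
The x axis lists 44 tested genes in chromosome 7 order and the y axis gives the log2 fold change of cKO against WT with its standard error; orange marks the 9 members and open circles mark genes whose WT and cKO libraries overlap. Members from 2900092C05Rik to Chmp2a, picked for their shift between the groups, lie below 0 and are interspersed with genes near 0. The pseudogenes Gm7789 and Tpt1-ps4 lie above the axis, the latter with 0 reads in WT.

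A wider stretch, from 10 tested genes before Zik1 to 10 after Chmp2a, held 36 genes besides the members. Of these, 25 had a log2 fold change above 0 and 11 below, with a median of 0.07. The groups did not overlap in 12 of them (33.3%), 7 higher and 5 lower, against 18.9% of all genes tested in either direction. The edgeR threshold was passed by 1, Gm7789 (ENSMUSG00000110186), an unprocessed pseudogene from 10988419 to 10996362 and the first tested gene after Zik1. It had 11, 3 and 6 reads in WT and 115, 82 and 103 in cKO, a log2 fold change of 3.87 (SE 0.31, edgeR adjusted p = 6.94e-04). Of its 75-base stretches 40.5% also occur in transcripts of other genes, and how this affects its counts was not tested. Its next tested neighbours, which fall outside the rule for naming genes and were chosen after their values were seen, also stood apart in both directions. Gm45549, an unprocessed pseudogene, had 55, 69 and 35 reads in WT and 31, 24 and 19 in cKO. Tpt1-ps4, a processed pseudogene, had 0 reads in each WT library and 22, 12 and 12 in cKO. A count of 0 allows up to 3 reads, or 0.0462 to 0.0510 CPM in these libraries, counting error only. Gm3836, a processed pseudogene, had 79, 74 and 67 reads in WT and 57, 35 and 46 in cKO. The 3 had edgeR adjusted p of 0.276, 0.0545 and 0.276. The 8 tested genes between Zik1 and 2900092C05Rik were these 4 pseudogenes, the pseudogenes Gm17737 and Gm10179, and the zinc finger genes Zfp551 and Zfp606. The last 4 overlapped between the groups.

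By the naming rule 3 further genes of the stretch stood out, each higher in cKO without overlap. Zfp264, annotated as a transcribed pseudogene, had 3.78, 3.53 and 3.60 CPM in WT and 5.44, 4.93 and 5.75 CPM in cKO, a log2 fold change of 0.56 (SE 0.11, edgeR adjusted p = 0.276). Zim3, which overlaps it, had 2.89, 2.51 and 2.72 CPM against 3.23, 3.57 and 3.44 CPM. Searched on both strands, 68.1% of its 75-base stretches occur in other genes, mostly Usp29. Usp29 overlaps Zim3 on the opposite strand, and the counts used are by strand. Nlrp5-ps had 3.35, 3.39 and 2.88 CPM against 4.30, 4.15 and 4.13 CPM, and 41.6% of its stretches are shared. How far such sharing affects these counts was not tested.

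Other zinc finger genes lay in both directions. The 13 tested zinc finger genes of the stretch that are no members had a median log2 fold change of 0.04. In 2 of the 13 the groups did not overlap, both higher (15.4%, against 18.9% of all genes tested). Outside the stretch chromosome 7 held 85 tested zinc finger genes, with a median of 0.03, 37 lower and 48 higher. Of these 0 passed the edgeR threshold, and DESeq2 called 0 of the 49 that had an adjusted p. An unadjusted edgeR p under 0.05 was found for 14, 2 lower and 12 higher, against 13.9% of all genes tested. The groups did not overlap in 28.2% of the 85, 16 higher and 8 lower, against 18.9% of all genes. With library totals alone as the scaling the median of these 85 genes was 0.00. The lowest p belonged to Peg3, an imprinted zinc finger gene, with a mean of 8.55 ± 0.648 CPM in WT and 11.5 ± 1.93 in cKO (SD, n = 3; edgeR adjusted p = 0.288). Zfp28 (6.07 ± 0.169 and 4.83 ± 0.316 CPM) and Zfp629 (24.9 ± 1.40 and 30.6 ± 3.68 CPM) followed, lower and higher respectively, each with an edgeR adjusted p of 0.288.

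The partners of these proteins were counted next. Of 22 genes of the KRAB corepressor machinery, 0 passed the edgeR threshold, 5 had an unadjusted edgeR p under 0.05, all higher, where 13.9% of all genes tested had one in either direction. A log2 fold change below 0 was found for 3 of the 22, against 49.3% of all genes, and the median was 0.09. With library totals alone as the scaling it was 5 of the 22, with a median of 0.06, against 12161 of all 21902 genes. DESeq2 called 2 of the 21 that had an adjusted p, against 1.78% of all such genes. These were Chd3 and Chd4, helicases of the NuRD complex. Chd3 had 72.0, 68.2 and 71.8 CPM in WT and 78.3, 94.6 and 89.0 CPM in cKO, and Chd4 had 292, 283 and 278 CPM against 311, 395 and 350 CPM, with edgeR adjusted p of 0.276 for both and DESeq2 adjusted p of 0.0391 and 0.0434. Dnmt1, the maintenance DNA methyltransferase, had 62.2 ± 5.29 CPM in WT and 71.6 ± 4.36 in cKO (SD, n = 3; edgeR adjusted p = 0.313). Without cKO replicate 1 edgeR called 4 of the 22, in a fit that called 628 genes in all.

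The p75 neurotrophin receptor pathway, in which the Zfp110 protein acts, had 13 of 15 listed genes tested. A log2 fold change below 0 was found for 2 of the 13, against 49.3% of all genes tested, and the median was 0.09. With library totals alone as the scaling it was 3 of the 13, with a median of 0.06. The groups did not overlap in 3, all higher (23.1%, against 18.9% of all genes in either direction). With edgeR 0 passed, and DESeq2 called 0 of the 9 that had an adjusted p. An unadjusted edgeR p under 0.05 was found for 1, where 13.9% of all genes tested had one. That 1 gene was Ngfr, which encodes the receptor itself, with 16.1, 15.3 and 14.7 CPM in WT and 16.6, 20.2 and 17.7 CPM in cKO (log2 fold change 0.24, SE 0.089, edgeR adjusted p = 0.307). Traf6, an adaptor that binds the receptor, had 6.65 ± 0.247 CPM in WT and 7.54 ± 0.629 in cKO, and the neurotrophin gene Ntf5 0.217 ± 0.0820 and 0.321 ± 0.104 CPM (SD, n = 3). Of 14 other ESCRT-III and associated genes, 0 passed with edgeR and 0 had an unadjusted p under 0.05, against 13.9% of all genes tested. DESeq2 called 0 of the 13 that had an adjusted p, and the median log2 fold change was -0.01. The groups did not overlap in 28.6% of them, 3 lower and 1 higher, against 18.9% of all genes. Pdcd6ip, Chmp5 and Chmp1b had the lowest p, with log2 fold changes of 0.12, -0.12 and -0.12.

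**Figure D4:**
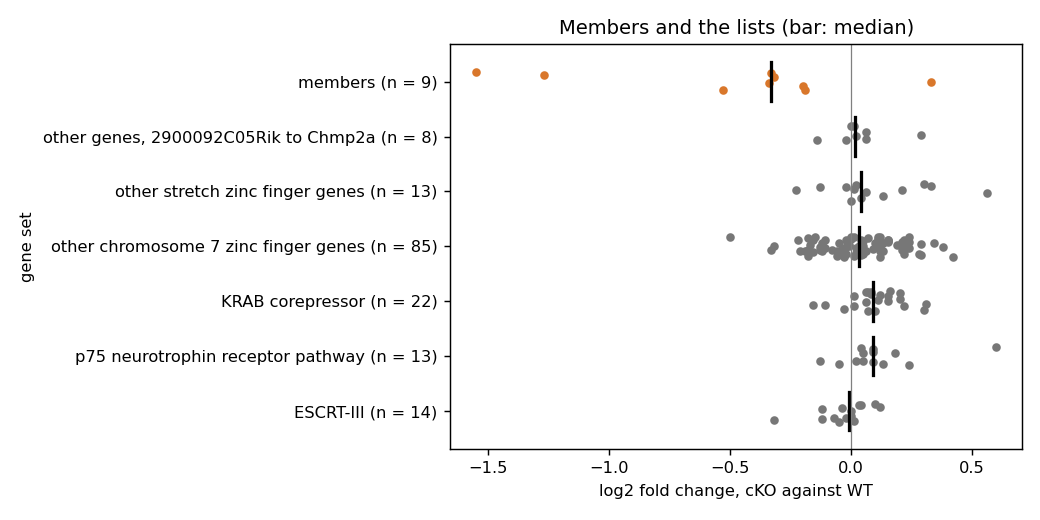
Each point is 1 gene, with its log2 fold change of cKO against WT on the x axis, and the rows are the 9 members, their tested neighbours and the fixed lists, with a bar at each median. The members, picked for their shift between the groups, have a median of -0.33, and the medians of the other rows lie between -0.01 and 0.09.

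Finally, the profile of Zfp110 over the 6 libraries was compared with those of 16830 other genes averaging 1 CPM or more, by Pearson correlation of log2 CPM. These points share the libraries and their scaling, and the profile is mostly the step between the groups that chose the gene. Among the members at or above that level, 1810019N24Rik (r = 0.960, n = 6), Zfp128 (0.946) and Zscan22 (0.905) were most alike, followed by 1700047O18Rik (0.795), 2900092C05Rik (0.705) and Chmp2a (0.683), and Zik1 was opposite at -0.790. The 5 most similar other genes were R74862 (0.994), 4930543N07Rik (0.989), Gm1647 (0.980), Ormdl2 (0.979) and Lpxn (0.974). The first 2 also lie on chromosome 7, but far from Zfp110, R74862 from 143021784 to 143053686 and the lincRNA 4930543N07Rik from 138554230 to 138567709. R74862 had 2.43, 2.40 and 2.38 CPM in WT and 1.93, 2.04 and 1.87 CPM in cKO.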

How the data were processed

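RNA of whole testes from 6 mice (3 WT, 3 cKO) was read as single ends of 75 bases, per the labels' protocols. The authors deposited raw read counts per gene, 1 table per library, unstranded and by strand, in the layout of STAR. The submitters' processing notes name STAR, HTSeq, DESeq2 and mm10; versions, roles and annotation are not given in the sources used here. Opposite-strand counts (96.0% to 96.2% of stranded reads) were used; the lines naming no gene (14.8% to 16.7%) were left out. GENCODE M21 (GRCm38, the build mm10) matched 52147 of 53700 identifiers.

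edgeR 4.0.16 (R 4.3.3) was run on all genes: quasi-likelihood F test between the groups, TMM-scaled, after filterByExpr (minimum count 10), Benjamini-Hochberg over 21902 genes, threshold 0.05. CPM uses TMM-scaled library sizes. The procedure was tested on simulated data. Alternatives were RLE scaling, library totals, no or a stricter filter, unstranded counts, a replicate block, each library left out, DESeq2 1.42.0, a threshold of 0.1 and a wider stretch. The members and lists were chosen with earlier results of these data known. Besides members and Msl3, genes were named if past the threshold on chromosome 7, if in the stretch with a mean of at least 1 CPM, no overlap and a log2 fold change of at least 0.3 in size, as the 3 lowest p of a list, or as the 5 most like Zfp110. P-values measure the spread between 3 mice a group; no batch is labelled. The values of 1 gene of the stretch are not reported here.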

Additional observations from a re-analysis of the deposited data

How the results depend on the processing

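The number of genes past the threshold over all genes was 4, and it was 757 with no filter on low counts, 2 with unstranded counts, 209 with DESeq2 and 1 to 628 when single libraries were left out, 628 without cKO replicate 1 and 116 without WT replicate 1. Of the 9 members 2 passed; 1 did so with library totals alone, 6 with no filter, 0 with unstranded counts, 1 with DESeq2 and 0 to 4 with a library left out. The 4 were those without cKO replicate 1, and the fits without WT replicate 3 or cKO replicate 2 called 0. Of the 36 other genes of the stretch 1 passed; 2 did so with RLE scaling, 5 with no filter, 0 with at least 10 reads in every library, 0 with DESeq2, 2 at a threshold of 0.1 and 1 to 3 with a library left out. The strict filter removes genes under 10 reads in any library, Gm7789 among them. Of the 85 other chromosome 7 zinc finger genes 1 passed with no filter and 0 to 3 with a library left out, and of the KRAB corepressor genes 2 with no filter, 2 with DESeq2 and 0 to 4 with a library left out, the highest counts without cKO replicate 1 in both. The p75 pathway and ESCRT-III lists had 0 under every alternative run. The median log2 fold change of the members ran from -0.38, without cKO replicate 2, to -0.32. Of 117 log2 fold changes of members under alternatives, 115 moved by less than the spread between libraries and none changed sign; those of 1810019N24Rik (-0.68) and Gm29638 (-1.05) with unstranded counts moved further. There the count of 1810019N24Rik is its minus-strand reads plus the plus-strand reads on its exons that miss Gm29638, and that of Gm29638 leaves out the reads touching both genes. For the other changes the cause was not tested.

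Deviations from the group means correlated across genes at 0.35, 0.26 and -0.05 between libraries of the same number. Libraries of different number were not compared, so whether the numbers mark a pairing was not tested. A replicate block was fitted as an alternative. In that fit 49 genes passed over all genes, 4 of the members (Zfp110, 2900092C05Rik, 1810019N24Rik and Gm29638) and 3 other genes of the stretch.

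Depth limits the lincRNA Gm29638 most, at 20 to 88 reads per library, and the plus-strand reads beside it, at 22 to 66. Gene counts cannot resolve exons or alleles, and with 3 libraries a group small differences are not detectable.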
